A study of Mus musculus with 30 samples.

Results

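Kidneys of wild-type (WT) male mice were compared 4 hours after ischemia-reperfusion injury (IRI), a stop of the kidney's blood flow followed by its return, with kidneys of WT males that had a nephrectomy (NX, the removal of a kidney) alone. The members were taken by label from the injury count table: 6 WT IRI libraries (replicates 0 to 5, treatment given as NX+IRI) and 3 WT NX libraries (replicates 0 to 2), which are 9 of the 30 libraries of the series, with every gene of the table. Both groups therefore carry the nephrectomy, and by label they differ in IRI. The wider study set WT kidneys beside kidneys of a transgenic genotype (TG) named Gsta2-H2BeGFP to follow early events of injury. All libraries were poly-A RNA of whole kidney. The labels do not give strain, age, the length of ischemia, the time at which NX kidneys were taken, or whether libraries came from separate animals, so p-values measure only the spread between these libraries, which may in part be technical.

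Ischemia stops oxygen supply to the tubule, and the proximal tubule, which reabsorbs most of the filtrate and depends on oxidative metabolism, is the segment known to be injured first. Reflow starts a fast transcriptional programme: immediate-early transcription factors that need no new protein, then chaperones, feedback phosphatases, cytokines and adhesion molecules that draw in neutrophils. Loss of transport and metabolic genes and the appearance of keratins, claudins and secreted injury markers in tubule cells are known later parts of the same response.

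Levels are CPM, read counts scaled to a common library total with TMM factors, and changes are log2 fold changes of IRI over NX ± SE from edgeR's quasi-likelihood fit. A gene is called higher or lower at a Benjamini-Hochberg adjusted p under 0.05 in that fit, and the adjusted p-values below are all from it. Library totals ran from 63435830 to 67643843 counts after NX and from 61649151 to 81205088 after IRI. Mitochondrially encoded genes took 8.53, 10.7 and 13.6% after NX and 10.1 to 16.3% after IRI of counts (exact two-sided permutation p = 0.548 over 84 arrangements, where the smallest possible is 0.0238). Genes with at least 1 count numbered 20969, 21375 and 21408 after NX and 21484 to 23124 after IRI, so every IRI library exceeded every NX library (exact permutation p = 0.0238, Benjamini-Hochberg 0.0714 over 3 library measures). Markers of the proximal tubule (Slc34a1, Lrp2, Cubn, Slc5a2) summed to 8437 to 13430 CPM after NX and 7228 to 9917 after IRI, and no defining marker of any kidney cell type checked was at 0 in a whole group.

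Some libraries stood apart. The first principal component of log2 CPM, with 39.9% of the variance, separated all 6 IRI from all 3 NX libraries. IRI replicate 5 lay alone on the second (12.6%) and NX replicate 0 alone on the third (11.8%). The library labelled WT IRI replicate 1 holds 2.59 CPM of EGFP, the transgene's reporter, which is at 0 in the other 8 libraries, so it goes against its wild-type label. NX replicate 0 holds adipocyte RNA: Adipoq, Plin1 and Cfd summed to 140 CPM there, to 0 in NX replicates 1 and 2, and to 0 to 6.53 in the IRI libraries. The larger changes in results without IRI replicate 1 or NX replicate 0 are given with and without them. Smaller moves in list counts are not all given.

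Of 19264 genes tested, 5952 (30.9%) were called. Of these 3229 were higher after IRI (16.8%) and 2723 lower (14.1%), but the rises were larger: 1627 genes rose at least 2-fold (8.45%) and 773 at least 4-fold (4.01%), against 467 (2.42%) and 131 (0.68%) that fell as far. In 2742 genes (14.2%) all 6 IRI libraries lay above all 3 NX libraries, and in 2363 (12.3%) all lay below. Genes called at least 2-fold higher, which were chosen by this difference, held 1.71 to 1.94% of counts after NX and 6.1 to 7.83% after IRI. Upper-quartile scaling turned the balance, with 2790 higher and 3931 lower, and moved the median change of all genes from -0.01 to -0.10. Without NX replicate 0, 2626 of the 3229 higher calls (81.3%) and 2022 of the 2723 lower calls (74.3%) were kept, and 40 lower genes changed sign. Without IRI replicate 1, 2990 (92.6%) and 2446 (89.8%) were kept, and without both, 2504 (77.5%) and 1989 (73%).

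**Figure D1:**
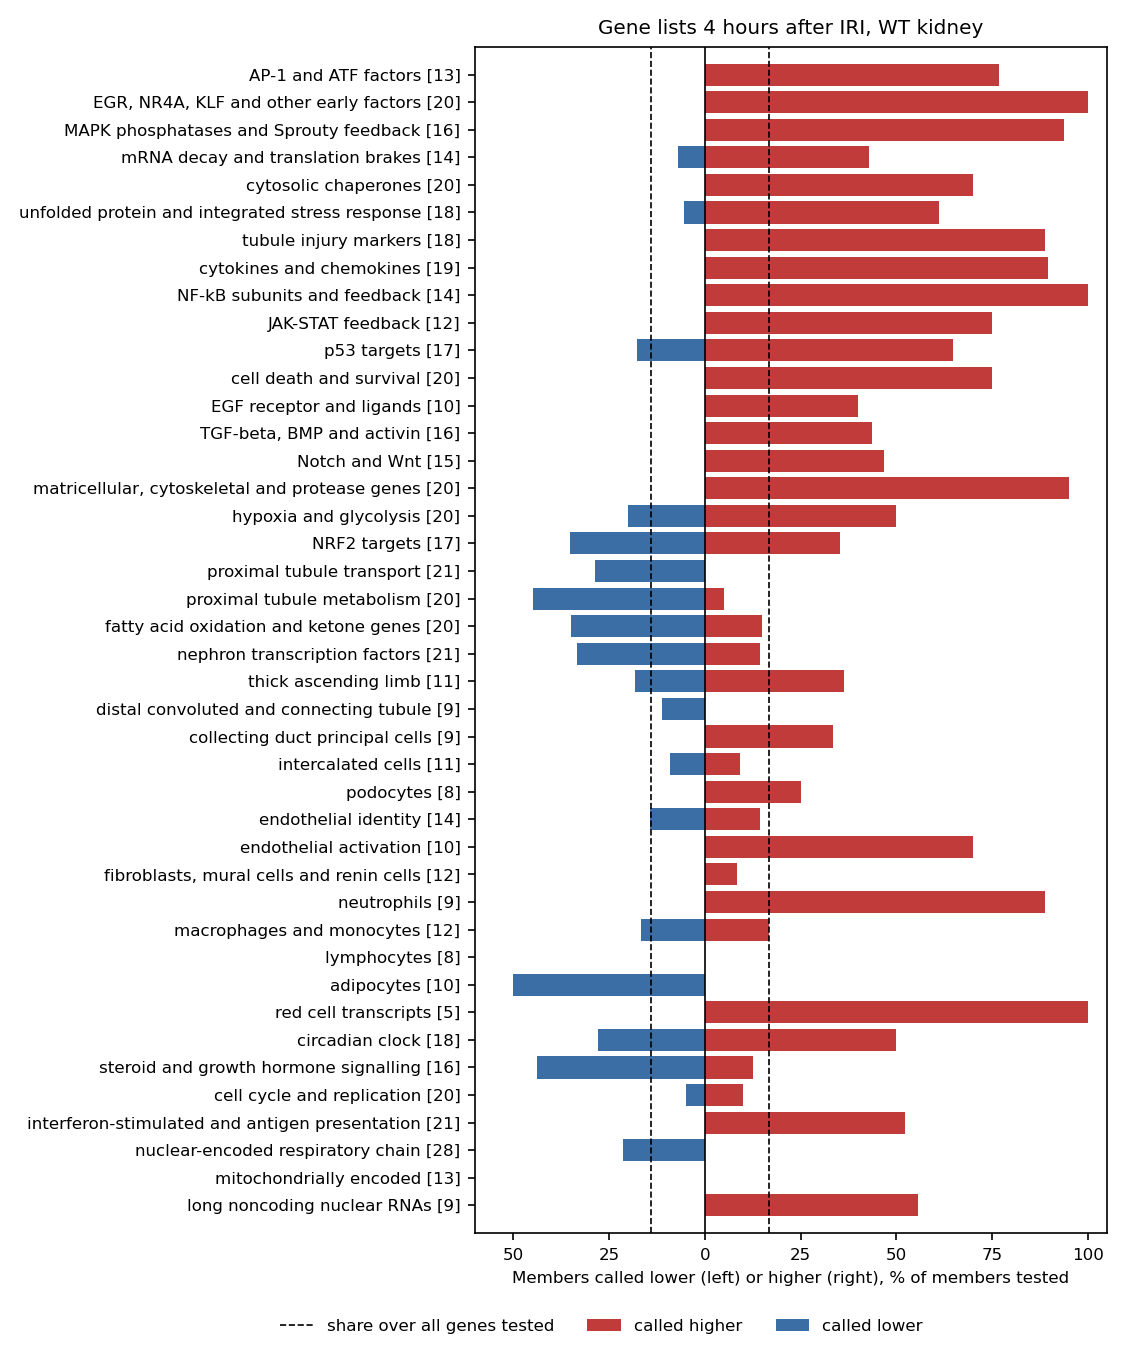
Share of the tested members of each gene list called higher (right, red) or lower (left, blue) after IRI in WT kidneys, in percent, with the number of members tested in brackets. Dashed lines mark the shares over all 19264 genes tested, 16.8% higher and 14.1% lower. Early factors, NF-kB genes and injury markers lie far to the right, proximal tubule and hormone lists to the left.

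Immediate-early transcription factors were 6 of the 15 largest changes. All 20 listed EGR, NR4A, KLF and other early factors rose (median change 4.12, against -0.01 over all genes), and 10 of 13 AP-1 and ATF factors did (median 4.40). Of the 20, 19 passed without NX replicate 0 and 18 without NX replicate 0 and IRI replicate 1. Egr1, a zinc finger factor switched on by growth factor and stress signals, was at 1.48, 1.56 and 1.83 CPM in the NX libraries and 686 to 1219.9 (median 922) in the IRI libraries. The groups did not overlap, and the change was 9.13 ± 0.35 (adjusted p = 1.01e-12). Jun, a partner of Fos in the AP-1 dimer, went from 16.4, 28.3 and 22.5 to 585 to 1604 (median 1043), a change of 5.55 ± 0.36 (adjusted p = 1.1e-09). Fosl1, another Fos-family subunit, was at 0, 0 and 0.0322 after NX and 2.88 to 9.36 (median 5.84) after IRI, and rose by 8.87 ± 0.65 (adjusted p = 1.9e-08). Egr2 rose by 8.37 ± 0.52 from 0.0311 ± 0.0306 (SD, n = 3) to 10.9 ± 2.91 CPM (SD, n = 6; adjusted p = 5.99e-10). Maff (change 6.63 ± 0.35), a small leucine zipper factor without an activation domain, and Arc (6.57 ± 0.42), best known as a neuronal activity gene, were also among the called members. Batf (1.51 ± 0.66) and Batf3 (1.04 ± 0.45) were among the 3 AP-1 list members that did not pass. The size of the change moved to 9.29 without NX replicate 1 for Egr2 and 11.67 without NX replicate 2 for Fosl1. In Fosl1 the other NX libraries are at 0, so the value without that library is no bound.

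The 15 largest changes of named genes with at least 1 CPM joined these factors with secreted and myeloid genes: Cxcl2, Il6, Vgf, Acod1, Fosb, Nptx2, Fos, Atf3, Trem1, the clone-named gene AC167363.2, Areg, Egr1, Fosl1, Sprr2g and Egr2. Acod1, which makes itaconate in activated macrophages, and Trem1, a receptor of neutrophils and monocytes, were at 0 in every NX library. Trem1 reached 0.462 to 3.23 (median 1.14) CPM after IRI, and AC167363.2 reached 0.696 to 1.78 (median 1.02). Set over a floor of 3 counts in the NX group, the IRI mean gives a rise of at least 84.5-fold for Trem1 and 72.6-fold for AC167363.2. Such bounds hold for the mean, not for each library. Most deposited counts are even, and if each read pair was counted as both of its reads, such bounds are too high. Sprr2g, a small proline-rich protein of stressed epithelia, was at 0, 0.0306 and 0 after NX and 1.92 to 11.1 (median 3.97) after IRI, and rose by 8.59 ± 0.94 (adjusted p = 1.27e-06). Fitted sizes also depended on single libraries, with 11.39 without NX replicate 1 for Sprr2g. In Sprr2g the other NX libraries are at 0, so the value without that library is no bound.

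Promoter letters are shown for Cxcl2, Il6, Fos, Areg and Egr2 of these genes, in which a searched motif lies before the start, and for Hspa1a. Acod1 (TATA box at -28) and Fosb (kappa-B match at -188) also hold a match there and are not shown. Egr2 and Hspa1a were chosen after their values were seen, because the motifs of early and heat shock genes can be read in them. Each line gives the 250 bases before the RefSeq start in GRCm38.p6, 5′ to 3′ on the gene's strand, with motif matches in capitals. The files were counted on GRCm39, so these positions belong to the RefSeq table alone. They are Cxcl2 at chr5:90903649-90903898 (plus strand), Il6 at chr5:30012864-30013113 (plus), Fos at chr12:85473640-85473889 (plus), Areg at chr5:91139349-91139598 (plus), Egr2 at chr10:67537316-67537565 (plus) and Hspa1a at chr17:34972157-34972406 (minus).
Cxcl2: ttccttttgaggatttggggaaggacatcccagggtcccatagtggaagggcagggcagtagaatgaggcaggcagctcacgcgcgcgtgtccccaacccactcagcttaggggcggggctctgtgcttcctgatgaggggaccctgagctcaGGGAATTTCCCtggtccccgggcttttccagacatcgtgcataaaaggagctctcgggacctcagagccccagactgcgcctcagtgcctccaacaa
Il6: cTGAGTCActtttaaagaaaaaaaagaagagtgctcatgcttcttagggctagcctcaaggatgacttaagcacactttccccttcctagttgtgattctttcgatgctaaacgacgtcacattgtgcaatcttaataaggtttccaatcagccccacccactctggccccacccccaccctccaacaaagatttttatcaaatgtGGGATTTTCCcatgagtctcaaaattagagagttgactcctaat
Fos: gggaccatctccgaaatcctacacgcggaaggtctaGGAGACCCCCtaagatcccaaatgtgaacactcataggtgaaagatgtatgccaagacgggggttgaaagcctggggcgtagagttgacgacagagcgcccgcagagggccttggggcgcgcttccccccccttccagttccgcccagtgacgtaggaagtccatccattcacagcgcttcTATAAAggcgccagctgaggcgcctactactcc
Areg: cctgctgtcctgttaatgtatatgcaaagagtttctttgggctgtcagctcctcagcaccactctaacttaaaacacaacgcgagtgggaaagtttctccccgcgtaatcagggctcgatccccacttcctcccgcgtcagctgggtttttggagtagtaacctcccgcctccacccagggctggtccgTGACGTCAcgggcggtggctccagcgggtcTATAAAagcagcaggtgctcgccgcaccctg
Egr2: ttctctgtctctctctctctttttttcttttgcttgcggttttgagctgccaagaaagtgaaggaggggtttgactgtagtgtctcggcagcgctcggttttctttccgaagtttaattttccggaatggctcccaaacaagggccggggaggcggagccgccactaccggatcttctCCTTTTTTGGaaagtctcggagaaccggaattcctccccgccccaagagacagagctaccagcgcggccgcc
Hspa1a: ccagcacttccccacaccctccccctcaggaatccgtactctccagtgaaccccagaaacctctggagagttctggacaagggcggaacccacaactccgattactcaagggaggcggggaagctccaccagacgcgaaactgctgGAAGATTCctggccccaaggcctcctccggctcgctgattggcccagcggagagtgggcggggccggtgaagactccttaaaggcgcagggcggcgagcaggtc
Counted from the base before the start as -1, matches began at these places: a kappa-B site, the element bound by NF-kB, at -97 in Cxcl2 (with an overlapping match at -96) and at -44 in Il6, which also has an AP-1 match (TGACTCA, here read on the other strand) at -249. Fos has a TATA box (TATAAA) at -33 and a kappa-B match at -214. In Areg a cyclic AMP element (CRE, TGACGTCA) stands at -61 and a TATA box at -31. Egr2 has a CArG box, the element of serum response factor, at -72, and Hspa1a a heat shock element core (GAANNTTC) at -104.

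These 6 motifs were searched on both strands of the RefSeq windows that run from 250 bases before to 50 after a start, and a match is only a match of letters. Of the 773 genes called at least 4-fold higher, 470 had a window in the table. A TATA box was found in 8.22% of windows of all genes tested, 15.9% of windows of genes at least 4-fold higher and 23.7% of those at least 16-fold higher. For AP-1 the shares were 4.27%, 9.42% and 13%, for CRE 2.71%, 4.28% and 5.92%, and for the CArG box 1.31%, 2.23% and 4.73%. The kappa-B site was in 5.34% of tested genes' windows, 7.71% at 4-fold and 8.28% at 16-fold, but in 16 of 33 windows (48.5%) of the listed cytokines, chemokines and NF-kB genes. The heat shock core was in 5.96%, 5.65% and 8.88%, but in 13 of 22 windows (59.1%) of the listed chaperones. Genes at least 4-fold lower, of which 58 had a window (66 windows), held the TATA box in 13.6%, AP-1 in 7.58%, CRE in 6.06%, the CArG box in 1.52%, the kappa-B site in 1.52% and the heat shock core in 4.55%. Their shares for the TATA box, AP-1 and CRE were thus also above those of all genes tested, on few windows. Over all 32851 windows of the table, including genes not tested, the shares were 13.6% (TATA), 5.2% (AP-1), 1.79% (CRE), 1.63% (CArG), 4.51% (kappa-B) and 7.86% (heat shock core). No test was made of these shares.

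**Figure D2:**
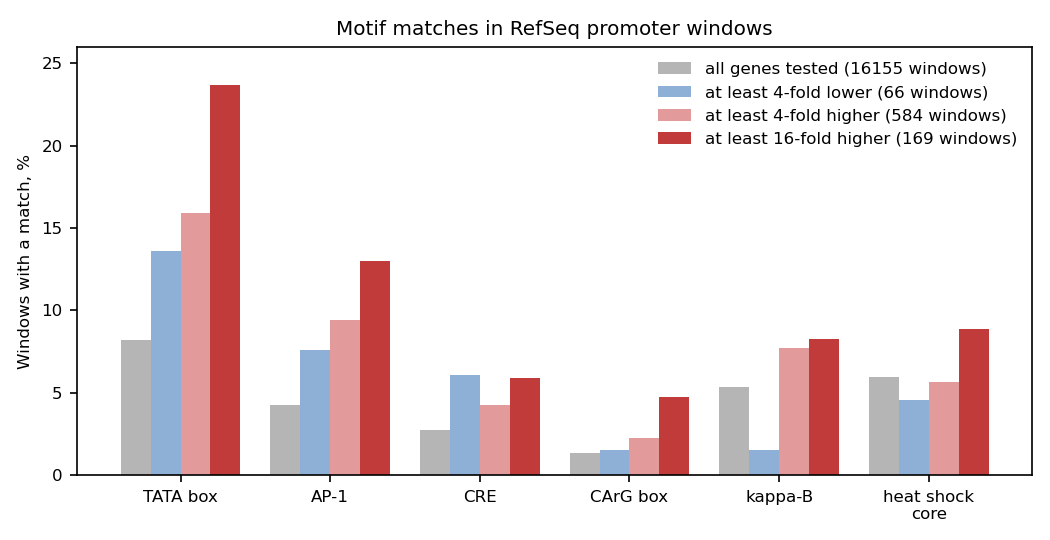
Percent of RefSeq promoter windows (y axis) with a match to each of 6 motifs, for all genes tested and for genes called at least 4-fold lower, at least 4-fold higher or at least 16-fold higher after IRI in WT kidneys. From genes tested to genes at least 16-fold higher the TATA box goes from 8.22% to 23.7% and AP-1 from 4.27% to 13%, the lower genes stand at 13.6% and 7.58%, and the heat shock core lies between 4.55% and 8.88%.

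Most feedback genes of the same signals rose. Of 16 listed MAPK phosphatases and Sprouty-type inhibitors, which switch off the kinases upstream of Fos and Egr1, 15 rose (median 1.72), all 15 without overlap between groups, and Spred1 (0.17 ± 0.09) did not pass. Dusp8, a phosphatase of the stress kinases JNK and p38, was at 2.23, 2.26 and 3.96 CPM after NX and 67.8 to 104 (median 87.7) after IRI, a rise of 4.92 ± 0.25 (adjusted p = 3.58e-11). Dusp5, which acts on ERK in the nucleus, rose by 4.69 ± 0.33, Dusp2 by 3.25 ± 0.52 and Dusp10 by 3.24 ± 0.33. Among 14 genes of mRNA decay and translation braking, 6 rose and 1 fell. Zfp36 (tristetraprolin), which marks cytokine mRNAs for decay, went from 15, 19.2 and 22.9 to 178 to 254 (median 241) and rose by 3.62 ± 0.20 (adjusted p = 7.29e-11). Btg2 (4.46 ± 0.19), Btg1 (1.96 ± 0.14) and the RNase gene Zc3h12a (2.97 ± 0.25) also rose, while Dcp2, the decapping enzyme, fell by 0.65 ± 0.10.

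Cytosolic chaperones were 5 of the 10 genes that gained most CPM: Hspa1b, Hsp90aa1, Hspa8, Hspa1a and Hsp90ab1. The gain of Hspa1b came second to that of mt-Rnr2, a mitochondrial ribosomal RNA. Hspa1b (HSP70), which refolds damaged proteins, was at 19.6, 207 and 25.8 CPM in NX replicates 0, 1 and 2 and at 1349 to 2522 (median 2124) after IRI. The IRI libraries all lay above the NX libraries, but NX replicate 1 was far above the other NX libraries, as it was for Hspa1a (8.73, 81.6 and 10.7 after NX, 999 to 2117 (median 1496) after IRI). Hspa1b rose by 4.61 ± 0.74 (adjusted p = 9.58e-05) and Hspa1a by 5.52 ± 0.74 (adjusted p = 1.46e-05); these near-identical neighbours can share reads, so their split is uncertain. Hsp90aa1, the inducible HSP90, went from 415, 639 and 437 to 1892 to 3279 (median 2129) (2.21 ± 0.26, adjusted p = 3.2e-06), against 0.98 ± 0.16 for Hsp90ab1 and 0.71 ± 0.18 for Hspa8, the constitutive forms. In all 14 of 20 listed chaperones rose (median 1.01), with Hspb1 (4.26 ± 0.34), the small heat shock protein HSP27, and Dnajb1 (3.02 ± 0.39), an HSP70 co-chaperone, next in size. The HSP90 cofactor Stip1 (0.32 ± 0.16) was among those that did not pass. Among calls that held, 1 library moved the size to 6.51 without NX replicate 1 for Hspa1b and 7.32 without NX replicate 1 for Hspa1a.

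In the unfolded protein and integrated stress response list 11 of 18 rose and 1 fell (median 0.61), a fall lost without any of 6 single libraries. The called members were led by targets of the eIF2 alpha kinase branch: Chac1 (6.20 ± 0.50), which degrades glutathione, Ppp1r15a (4.31 ± 0.16), Trib3 (3.56 ± 0.43) and Ddit3 (3.01 ± 0.20). Endoplasmic reticulum chaperones moved less than these targets and in both directions. Dnajb9 rose by 1.02 ± 0.17 and Hspa5 (BiP) by 0.77 ± 0.15. Pdia4 fell by 0.49 ± 0.18, and Hsp90b1 (0.20 ± 0.15) and Calr (-0.18 ± 0.14) did not pass. Pdia4 did not pass without NX replicate 1 or 2 or IRI replicate 2, 3, 4 or 5 (changes -0.51 to -0.28). The size of the change moved to 7.23 without NX replicate 1 for Chac1.

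Of 19 tested cytokines and chemokines (21 listed), 17 rose (median 4.51) and none fell, and Il1a (-1.48 ± 1.04) and Cx3cl1 (0.28 ± 0.13) did not pass. Without NX replicate 0, 16 rose. Cxcl2, a chemokine that attracts neutrophils, was at 0 in all 3 NX libraries and at 4.5 to 12.4 (median 7.45) CPM after IRI. Its mean was at least 510.2-fold over the floor. Il6 was also at 0 after NX and reached 3.88 to 9.04 (median 6.87), with a mean at least 421-fold over it. Csf3, which drives neutrophil production, rose by 8.09 ± 1.79, the monocyte chemokine Ccl7 by 8.42 ± 1.41 and Ccl2 by 5.06 ± 0.43. Csf3 and Ccl7 were at 0 in every NX library and had means of only 0.479 and 0.601 CPM after IRI. Their fitted sizes are therefore no bound. All 14 NF-kB subunits and inhibitors rose (median 2.20), led by Nfkbiz, an atypical inhibitor that serves as a coactivator, from 4.02, 3.19 and 2.57 to 52.1 to 60.7 (median 57.2) (4.13 ± 0.21, adjusted p = 2.85e-11). Tnfaip3 (A20), which ends NF-kB signalling, rose by 3.45 ± 0.22, the subunit Rel by 3.28 ± 0.26 and Relb by 3.26 ± 0.21. Without NX replicate 0, and likewise without IRI replicate 1, 13 of the 14 passed. Of 12 genes of the JAK-STAT pathway 9 rose: Socs3, the inhibitor induced by IL-6, went from 0.989, 1.01 and 1.16 to 26.3 to 54.4 (median 33.5) (5.12 ± 0.23, adjusted p = 5.95e-12). Osmr rose by 2.11 ± 0.23, Socs1 by 2.33 ± 0.53 and Pim1 by 2.08 ± 0.24, while Il6st (-0.22 ± 0.11), the shared receptor chain, did not pass.

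Neutrophil genes came from near 0. Of 13 listed, Ly6g, Ngp, Mpo and Camp were too low to test, and of the other 9, 8 rose without overlap between groups. S100a8, a calcium-binding protein abundant in neutrophils, was at 0, 0.122 and 0.161 CPM after NX and 5.45 to 24.3 (median 6.78) after IRI (6.67 ± 0.89, adjusted p = 1.35e-05). Clec4d was at 0, 0 and 0.0322 and 0.992 to 6.42 (median 1.78) (7.61 ± 1.35), Mmp8 at 0.0618, 0 and 0 and 1.41 to 9.52 (median 2.3) (7.36 ± 1.27) and Cxcr2, the receptor of Cxcl1 and Cxcl2, at 0, 0 and 0.0644 and 1.32 to 5.03 (median 2.14) (6.83 ± 1.12). The granule gene Ltf was the tested member that did not pass, at 0.278, 0.428 and 0.515 and 0.23 to 0.696 (median 0.363) CPM. S100a8, S100a9 and Csf3r summed to 0.214 to 0.896 CPM after NX and to 20.2 to 76.7 after IRI, with the highest sum in IRI replicate 5 and the next, 32.6, in replicate 3. In bulk RNA, more cells of a type and more RNA per cell cannot be told apart, and the same holds for every rise and fall given here. Fitted sizes also depended on single libraries, with 10.53 without NX replicate 2 for Cxcr2, 7.29 without NX replicate 2 for S100a8, 10.42 without NX replicate 2 and 7.02 without IRI replicate 5 for Clec4d and 11.05 without NX replicate 0 for Mmp8. In Cxcr2, Clec4d and Mmp8 the other NX libraries are at 0, so the value without those libraries is no bound.

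Of 10 genes listed for endothelial activation 7 rose (median 1.67). Sele (E-selectin), which catches rolling leukocytes, went from 0.355, 0.0917 and 0.193 to 3.39 to 12.3 (median 5.64) CPM (4.94 ± 0.56, adjusted p = 1.81e-06). Selp (P-selectin) rose by 3.0 ± 0.74 and Vcam1, which injured tubule cells also make, by 2.32 ± 0.17. Lyve1, a marker of lymphatic vessels rather than of activation, rose by 2.86 ± 0.76. Endothelial identity genes were mostly not called: 2 of 14 rose and 2 fell, and without NX replicate 1, 1 rose and 1 fell. Their shares, 14.3% each, lie near those over all genes tested (16.8% higher and 14.1% lower). Cdh5 (VE-cadherin) rose by 1.24 ± 0.16 and Pecam1 by 0.60 ± 0.17. Sox18, an endothelial transcription factor, fell from 12.3, 10.8 and 12.6 to 1.38 to 6.5 (median 2.75) (-1.91 ± 0.36, adjusted p = 0.000495), and Ehd3, a marker of glomerular endothelium, by 0.72 ± 0.21. Calls were lost without NX replicate 1 for Pecam1 (0.54) and Ehd3 (-0.64) and without NX replicate 2 for Ehd3 (-0.58). Among calls that held, 1 library moved the size to 5.53 without NX replicate 0 for Sele and 4.11 without NX replicate 0 for Lyve1.

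Of 12 macrophage markers 2 rose and 2 fell, 16.7% each, near the shares over all genes tested (16.8% higher and 14.1% lower). Cd68 (1.36 ± 0.19) and C1qb (0.73 ± 0.20) rose, and Cx3cr1, the fractalkine receptor of resident macrophages, fell from 5.29, 2.87 and 4.51 to 0.904 to 1.34 (median 1.23) (-1.85 ± 0.25, adjusted p = 1.3e-05), with no overlap. Csf1r fell by 0.36 ± 0.14 (adjusted p = 0.0484), the weakest of these calls. Without single libraries the list held 1 to 4 higher and 1 or 2 lower members, with 4 higher without IRI replicate 1. None of the 8 tested lymphocyte markers was called. Interferon-stimulated and antigen presentation genes rose in 11 of 21 cases (median 0.68), and in 16 without IRI replicate 1. Irf1 was at 7.9, 5.55 and 6.15 after NX and 12.4 to 64.9 (median 16.8) after IRI (1.92 ± 0.40, adjusted p = 0.00121), Isg15 rose by 1.99 ± 0.41, Oasl1 by 1.93 ± 0.30 and Ifit1 by 1.49 ± 0.42. The 5 red cell transcripts, which come with blood left in the tissue, all rose. Their sum for 2 defining markers ran from 33.3 to 112.5 CPM after NX and from 102 to 1188 after IRI, so the groups overlapped, and the part of retained blood in the neutrophil and other leukocyte values was not tested. Leaving out single libraries, these changes did not pass: Ifit1 (1.32) without NX replicate 1 and C1qb (0.61) without NX replicate 2. Csf1r did not pass without NX replicate 0, 1 or 2 or IRI replicate 0, 1, 4 or 5 (changes -0.40 to -0.29). The size of the change moved to 2.7 without NX replicate 0 for Isg15.

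**Figure D3:**
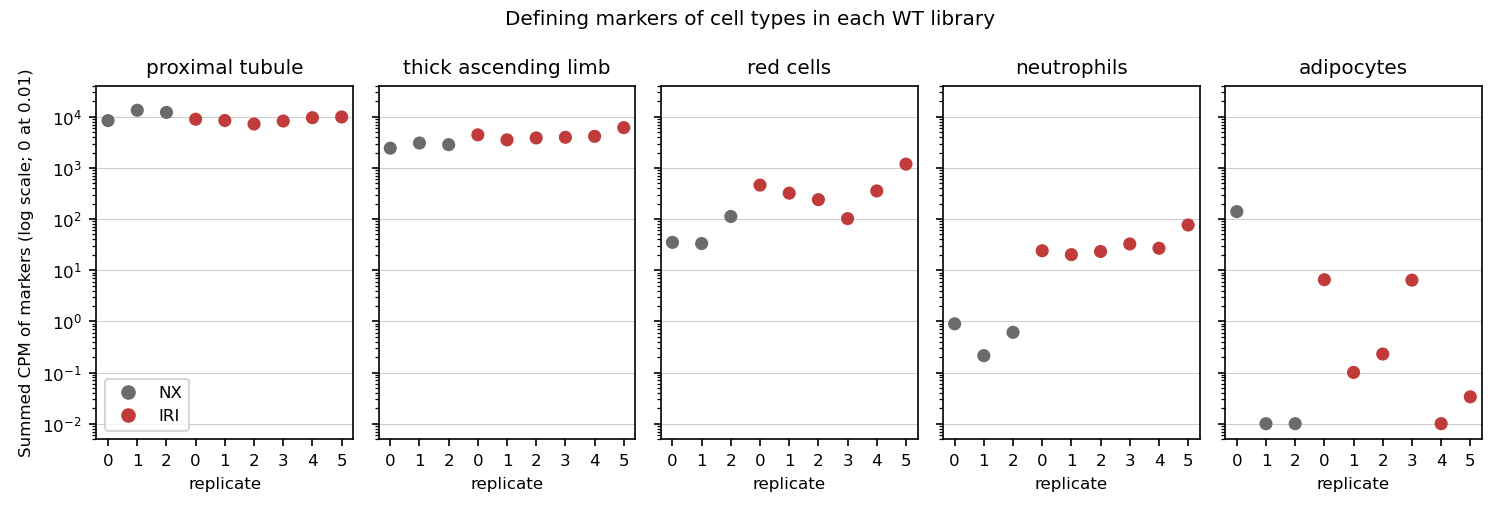
Summed CPM of defining markers in each WT library (y axis, log scale; 0 drawn at 0.01) for proximal tubule, thick ascending limb, red cells, neutrophils and adipocytes, with NX replicates 0 to 2 in grey and IRI replicates 0 to 5 in red. Neutrophil sums are below 1 after NX and above 20 after IRI, adipocyte sums reach 140 in NX replicate 0, and IRI replicate 5 has the highest red cell sum, 1188.

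Of 20 cell death and survival genes 15 rose (median 1.76) and none fell. Without NX replicate 0, 13 rose, and without IRI replicate 1, 14 rose. Gadd45b went from 1.85, 0.978 and 1.03 to 34 to 52.4 (median 41.5) CPM (5.02 ± 0.25, adjusted p = 2.27e-11), Gadd45a rose by 3.34 ± 0.26 and Gadd45g by 3.0 ± 0.36. The BH3-only genes Pmaip1 (Noxa) and Bbc3 (Puma) rose by 3.31 ± 0.30 and 2.68 ± 0.36, as did genes that protect from death, Mcl1 (1.67 ± 0.13) and Bcl2l1 (1.08 ± 0.14), and the necroptosis effector Mlkl (2.24 ± 0.35). Among 17 p53 targets 11 rose and 3 fell. Plk3, a stress kinase, was at 3.31, 12 and 10.5 and 179.8 to 552 (median 329) (5.39 ± 0.49, adjusted p = 1.03e-07) and Plk2 rose by 3.49 ± 0.17, whereas Mdm2 rose by 1.04 ± 0.18 and Phlda3, Ei24 and Ccng1 fell by 1.18, 0.45 and 0.25, of which Phlda3 changed sign without NX replicate 0. Zmat3 (-0.25 ± 0.14) did not pass. Cell cycle and replication genes were mostly not called: of 20, Mki67 (0.75 ± 0.23) and Pcna (0.52 ± 0.09) rose and Ccnd1 fell by 0.32 ± 0.11. This list held 1 member higher without NX replicate 0 and 5 without NX replicate 2. The threshold was missed by Phlda3 (0.29) and Mki67 (0.57) without NX replicate 0 and by Phlda3 (-1.10) without IRI replicate 2. Ccnd1 did not pass without NX replicate 0 or 1 or IRI replicate 2, 3 or 4 (changes -0.30 to -0.26). Ccng1 did not pass without NX replicate 0, 1 or 2 or IRI replicate 4 (changes -0.25 to -0.22). Fitted sizes also depended on single libraries, with 2.86 without NX replicate 2 for Mlkl.

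Tubule injury markers were called higher in 16 of 18 cases (median 2.75), and Havcr1 and Krt19 did not pass. Without NX replicate 0, 17 of 18 were higher (median 3.13). The change of Krt19 was 0.85 ± 0.54 and ran from 0.35 to 3.01 without single libraries. Havcr1 (KIM-1), the scavenger receptor that marks injured proximal tubule later on, was at 1.45, 0.367 and 1.13 CPM after NX and 0.871 to 2.26 (median 1.38) after IRI. The groups overlapped (change 0.62 ± 0.49, adjusted p = 0.366). Lcn2 (NGAL), secreted mainly by distal segments after injury, was at 0.865, 1.28 and 0.676 and 13.9 to 36.4 (median 15.1) without overlap (4.39 ± 0.35, adjusted p = 2.03e-08). Sprr2f rose by 6.70 ± 1.32, the urokinase receptor gene Plaur by 4.71 ± 0.28 and the tight junction gene Cldn4 from 17, 16.3 and 13.4 to 249 to 656 (median 285) (4.47 ± 0.33, adjusted p = 6.44e-09). Of 17 keratins tested 8 rose and none fell, with Krt8 from 83.9 ± 6.36 to 486 ± 133 and Krt18, its partner in simple epithelia, from 11.8 ± 4.65 to 79.8 ± 16.1 CPM. Without NX replicate 0, 11 of the 17 keratins rose. Of 19 claudins 5 rose, and Cldn2, the leaky pore of the proximal tubule, and Cldn12 fell by 0.59 ± 0.12 and 0.40 ± 0.11. Single libraries decided some of these calls, which were lost for Cldn12 (-0.35) without NX replicate 2. Among calls that held, 1 library moved the size to 9.50 without NX replicate 0 for Sprr2f. In Sprr2f the other NX libraries are at 0, so the value without that library is no bound.

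Among EGF receptor ligands the called members were Areg, Ereg and Hbegf. Areg (amphiregulin) was at 0 after NX and at 0.46 to 1.67 (median 1.19) after IRI, its mean at least 70-fold over the floor. Hbegf rose by 4.51 ± 0.22 and the receptor gene Egfr by 0.76 ± 0.22. The EGF receptor binds all 3 ligands. The other 6 of the 10 tested members did not pass. Matricellular, cytoskeletal and protease genes rose in 19 of 20 cases (median 1.82), with Plau (0.26 ± 0.24) the exception. Ccn1, a secreted matrix protein induced by mechanical and growth signals, went from 13.4, 32.3 and 17.8 to 529 to 924 (median 823) CPM (5.19 ± 0.39, adjusted p = 7.16e-09). Ankrd1, a nuclear and sarcomeric ankyrin-repeat protein, rose by 4.60 ± 0.39 and Flnc, an actin crosslinker, by 4.49 ± 0.53. Of 16 TGF-beta, BMP and activin genes 7 rose: Inhbb, an activin subunit, by 4.13 ± 0.35, Skil by 1.46 ± 0.13, Id1 by 1.13 ± 0.20 and Id3 by 1.11 ± 0.28. Notch and Wnt genes rose in 7 of 15 cases, with Wnt4, needed for tubule formation in development, at 0.711, 0.428 and 0.644 and 1.57 to 3.61 (median 2.06) (2.02 ± 0.36), Wnt9a 1.59 ± 0.26, Wnt7b 1.39 ± 0.23 and Notch1 0.85 ± 0.19. Calls were lost without NX replicate 0 for Egfr (0.61).

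**Figure D4:**
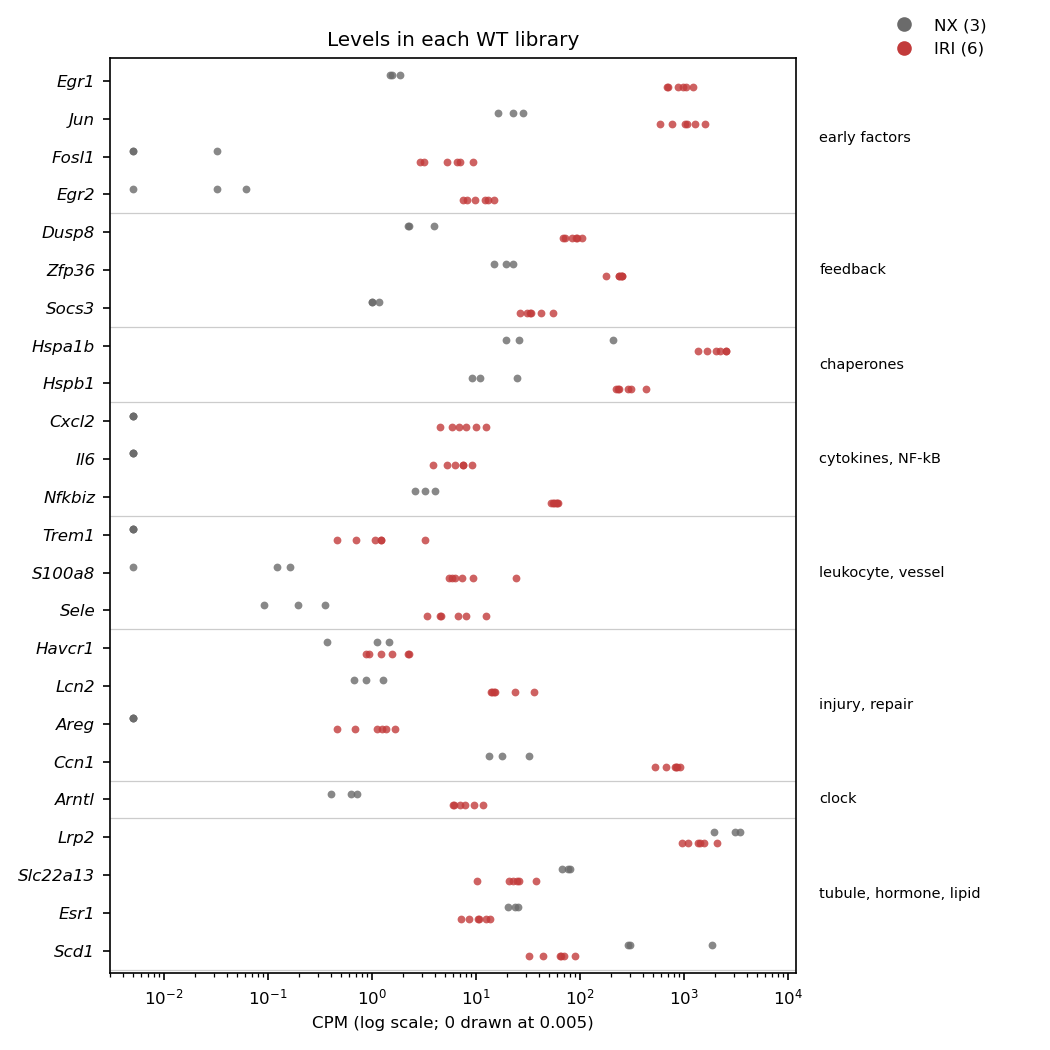
CPM per library (x axis, log scale; 0 drawn at 0.005) of 24 genes in the 3 WT NX libraries (grey) and the 6 WT IRI libraries (red), ordered by role. Trem1, Cxcl2, Il6 and Areg are at 0 in every NX library, Havcr1 overlaps between groups, and Lrp2, Slc22a13, Esr1 and Scd1 lie lower after IRI.

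Of 21 proximal tubule transport genes 6 fell, none rose and 15 did not pass (median -0.27). Without NX replicate 0, 8 fell. Slc22a13, an organic anion transporter, was at 67.4, 80.2 and 75.8 CPM after NX and 10.2 to 37.4 (median 23.9) after IRI (-1.65 ± 0.26, adjusted p = 9.24e-05). The endocytic receptors Lrp2 (megalin) and Cubn (cubilin) were at 1922, 3079.7 and 3418 against 965 to 2079 (median 1385) and 421, 726 and 762 against 279 to 444 (median 343), and fell by 0.99 ± 0.20 (adjusted p = 0.000849) and 0.86 ± 0.16 (adjusted p = 0.000355). The lowest NX value, in replicate 0, lay within the IRI values for Lrp2 and for Cubn. The amino acid transporter Slc6a18 fell by 0.77 ± 0.14. The main phosphate transporter, Slc34a1, was not called (-0.19 ± 0.13). Of 20 metabolic genes of the segment 9 fell and Gldc rose (0.58 ± 0.21). Without NX replicate 1 or without NX replicate 2, 2 of the 20 fell. Kap, the androgen-regulated kidney protein with the largest loss in level, went from 20523, 20390.0 and 19491 to 10858 to 14888 (median 13462) (-0.64 ± 0.14, adjusted p = 0.00191). G6pc, the last step of gluconeogenesis, changed by -0.83 ± 0.30 (adjusted p = 0.0428). G6pc did not pass without NX replicate 1 or 2 or IRI replicate 1, 2, 3 or 4 (changes -0.95 to -0.46). Gldc did not pass without NX replicate 0 or 2 or IRI replicate 0, 1 or 3 (changes 0.34 to 0.69).

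Among the 10 largest losses in CPM were Kap, Slc27a2, Lrp2, Fth1, Ass1, Tmbim6, Scd1, Psap and Ugt3a2, and those other than Scd1 were falls of 1.22- to 1.99-fold in abundant genes. Slc27a2, a fatty acid transporter and acyl-CoA synthetase, fell from 4158, 4956 and 4454 to 2118 to 3132 (median 2855) (-0.71 ± 0.10, adjusted p = 2.12e-05), and Ugt3a2, a glycosyltransferase, from 2088 ± 255 to 1337 ± 133 (-0.64 ± 0.09). Psap fell by 0.40 ± 0.08, Tmbim6 by 0.41 ± 0.09, Ass1 by 0.32 ± 0.11 and Fth1 by 0.28 ± 0.09. Across families, 101 of 334 solute carriers tested fell (30.2%) and 44 rose (13.2%). Of 59 cytochrome P450 genes 14 fell (23.7%) and 3 rose (5.1%), and Cyp7b1 fell furthest among those of at least 1 CPM (-1.76 ± 0.38). Over all genes tested 14.1% fell and 16.8% rose, so the share of rises was below that in both families. The solute carriers that rose included amino acid carriers: Slc7a11 (3.53 ± 0.63), Slc7a1 (2.94 ± 0.19), Slc7a5 (2.76 ± 0.33) and Slc38a2 (2.58 ± 0.23), named after their values were seen. Leaving out single libraries, these changes did not pass: Ass1 (-0.22), Tmbim6 (-0.28) and Fth1 (-0.14) without NX replicate 1 and Ass1 (-0.33) and Fth1 (-0.27) without NX replicate 2.

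Of 20 fatty acid oxidation genes 7 fell (35%) and 3 rose (15%), with 4 falls without NX replicate 0. Over all genes tested 14.1% fell and 16.8% rose. Ehhadh (-0.59 ± 0.12) and Cpt2 (-0.55 ± 0.09), of peroxisomal and mitochondrial oxidation, fell, and so did Hadhb (-0.48 ± 0.14) and Acadm (-0.46 ± 0.15). Pdk4, which blocks glucose carbon from the citric acid cycle, rose from 106, 17.3 and 29.7 to 175 to 368 (median 312) (2.53 ± 0.43, adjusted p = 0.000175), Angptl4 by 1.27 ± 0.27 and the hormone Fgf21 from 0, 0 and 0 to 0.0616 to 0.666 (median 0.429) (7.84 ± 1.40). Of 28 nuclear-encoded respiratory chain subunits 6 fell (21.4%, against 14.1% over all genes tested) and none rose. Without single libraries 2 to 7 of them fell, 2 without NX replicate 0 or 1 and 3 without NX replicate 2 or IRI replicate 2 or 3. Sdhc (-0.36 ± 0.08) and Sdhd (-0.34 ± 0.07), of complex II, had the largest falls among the called members. None of the 13 mitochondrially encoded proteins was called, while the mitochondrial ribosomal RNAs mt-Rnr2 and mt-Rnr1, which a poly-A library samples poorly, rose by 1.43 ± 0.40 and 1.34 ± 0.42. mt-Rnr2 was at 1532, 1256 and 951 after NX and 1514 to 7547 (median 2707) after IRI, highest in replicate 5. The threshold was missed by Acadm (-0.42) and Hadhb (-0.09) without NX replicate 0, by mt-Rnr1 (1.37) without NX replicate 1 and by Acadm (-0.42), mt-Rnr1 (1.24) and mt-Rnr2 (1.30) without NX replicate 2. The size of the change moved to 3.66 without NX replicate 0 for Pdk4.

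Hormone receptors and nephron transcription factors were also among the falls. Of 16 genes of steroid and growth hormone signalling 7 fell and 2 rose. Esr1, the estrogen receptor, was at 20.5, 23.5 and 25.3 CPM after NX and 7.14 to 13.6 (median 10.5) after IRI (-1.14 ± 0.18, adjusted p = 0.000109), without overlap. The growth hormone receptor Ghr fell by 0.78 ± 0.12 and the thyroid receptor Thrb by 0.59 ± 0.14. Sgk1 (1.99 ± 0.27) and Igfbp1 (1.60 ± 0.46) rose. Of 21 nephron transcription factors 7 fell: Lhx1 from 20, 25.3 and 22.6 to 9.68 to 12.4 (median 11) (-1.05 ± 0.11, adjusted p = 1.1e-06), Emx1 by 0.87 ± 0.14, Pou3f3, a regulator of the loop of Henle, by 0.80 ± 0.13, Tfap2b by 0.68 ± 0.18, and Hnf4a, the main proximal tubule factor, by 0.45 ± 0.13. Pax8, which kidney progenitors also express, rose from 45.5, 64.5 and 48.8 to 61.3 to 171 (median 117) (1.14 ± 0.21, adjusted p = 0.000457), and Nr1h4 (0.56 ± 0.16) and Irx3 (0.63 ± 0.20) rose. Single libraries decided some of these calls, which were lost for Irx3 (0.60) without NX replicate 0, for Tfap2b (-0.45), Hnf4a (-0.34), Irx3 (0.57) and Igfbp1 (1.25) without NX replicate 1 and for Nr1h4 (0.53) without NX replicate 2.

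Of 11 genes of the thick ascending limb 4 rose and 2 fell, while without NX replicate 0, and likewise without NX replicate 2, 1 rose and 1 fell. Umod, the most abundant urinary protein, was at 1441, 1857 and 1745 CPM after NX and 2277 to 4063 (median 2630.3) after IRI (0.74 ± 0.19, adjusted p = 0.00479), and Slc12a1 (0.62 ± 0.19) and Cldn16 (0.57 ± 0.21) rose. Bsnd (barttin), a channel subunit of this segment, fell from 39.5, 44.9 and 40.3 to 10.2 to 26.8 (median 21.3) (-1.02 ± 0.21, adjusted p = 0.00111), and Kcnj1 fell by 0.57 ± 0.19. Aqp2 (0.92 ± 0.22), Fxyd4 (0.84 ± 0.25) and Elf5 (1.50 ± 0.32) of the collecting duct rose, 3 of 9. In the distal convoluted tubule Klhl3, which controls degradation of WNK kinases, fell by 0.86 ± 0.19, 1 of 9 (3 without IRI replicate 5). Among 11 intercalated cell genes Slc4a9 rose (0.80 ± 0.19) and Hmx2 fell (-1.75 ± 0.41), with 2 falls without IRI replicate 5. These shares, 11.1% and 9.09%, lie below the background of 16.8% higher and 14.1% lower. Of 8 podocyte genes 2 rose, among them Nphs1 (nephrin, 0.49 ± 0.16), and 1 of 8 rose without NX replicate 0 or NX replicate 2. Of 12 fibroblast, mural and renin cell genes 1 was called, Akr1b7 (1.43 ± 0.41), against 2 without NX replicate 0 or NX replicate 2 and none without NX replicate 1. Calls were lost without NX replicate 0 for Slc12a1 (0.52) and Nphs1 (0.47), without NX replicate 1 for Akr1b7 (1.13) and without NX replicate 2 for Slc12a1 (0.65), Fxyd4 (0.75) and Nphs1 (0.48). Kcnj1 did not pass without NX replicate 0, 1 or 2 or IRI replicate 1, 2 or 3 (changes -0.62 to -0.45). Cldn16 did not pass without NX replicate 0, 1 or 2 or IRI replicate 0, 2, 4 or 5 (changes 0.40 to 0.63).

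Hypoxia genes moved both ways. Of 20, 10 rose and 4 fell (median 0.39). Ddit4, an inhibitor of mTOR, went from 9.15, 17.3 and 10.2 to 31.2 to 70.3 (median 55.2) CPM (2.14 ± 0.45, adjusted p = 0.00118), Adm rose by 2.08 ± 0.27, Slc2a1 (GLUT1) by 1.52 ± 0.21 and Ankrd37 by 1.42 ± 0.34. Car9, a classic HIF target, fell by 0.96 ± 0.27, Egln1 by 0.54 ± 0.09, Bnip3 by 0.33 ± 0.09 and Ldha by 0.27 ± 0.06. Of 17 NRF2 targets, genes of the oxidant response, 6 rose and 6 fell. Slc7a11, the cystine importer, was at 0.309, 0.244 and 0.0322 and 0.894 to 4.93 (median 1.84) (3.53 ± 0.63, adjusted p = 0.000288), and Srxn1 (2.44 ± 0.24), Hmox1 (2.12 ± 0.29) and Osgin1 (1.53 ± 0.30) rose. Nqo1, a common readout of NRF2, fell from 77.8, 72.4 and 69.3 to 35.6 to 55.8 (median 46.2) (-0.67 ± 0.14, adjusted p = 0.00121) with no overlap, and Gclm (-0.54 ± 0.11), G6pdx (-0.54 ± 0.10) and Me1 (-0.41 ± 0.11) fell. Gsta2, the glutathione transferase of the study's transgene, was at 57.6, 79.3 and 74.9 after NX and 52.6 to 142 (median 69.8) after IRI (0.25 ± 0.28, adjusted p = 0.545). Leaving out single libraries, these changes did not pass: Bnip3 (-0.27) without NX replicate 0, Car9 (-0.74) without NX replicate 1 and Bnip3 (-0.27) without NX replicate 2.

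Of 18 circadian clock genes 14 were called, 9 higher and 5 lower. Arntl (BMAL1), of the positive limb, was at 0.402, 0.718 and 0.628 CPM after NX and 6.02 to 11.6 (median 7.35) after IRI (3.77 ± 0.41, adjusted p = 1.29e-06), and Npas2, its partner, rose by 2.53 ± 0.44. The repressor Nfil3 rose by 3.45 ± 0.34 and Per1, which stress also induces, by 2.31 ± 0.26. Per3 fell from 34.9, 35.3 and 35.3 to 13.3 to 26.5 (median 15.4) (-0.99 ± 0.18, adjusted p = 0.000293), and the output factors Hlf (-0.92 ± 0.13) and Dbp (-0.86 ± 0.23) fell. The 14 called genes, which the call selects for a difference, were without overlap between groups. Of all 18, 9 had every IRI library above every NX library and 5 had every one below. Over all genes tested these shares were 14.2% and 12.3%. The labels give no hour of collection.

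The deepest falls depend on a single control library. When predicted genes and those under 1 CPM in both groups are set aside, the 15 most negative called changes were Elovl3, Orm1, Adrb3, Ucp1, Plin1, Otop1, Cidec, Acvr1c, Bche, Adipoq, Nat8l, Slc36a2, Cidea, Adig and Thrsp, among them the defining genes of fat, and in all 15 NX replicate 0 stood above the other NX libraries. Without it none of the 15 passed, and 14 (all but Bche) changed sign. Ucp1, of brown adipocytes, was at 652, 0 and 0 CPM after NX and 0 to 14.3 (median 0.116) after IRI, a fitted change of -5.64 ± 2.10. Adipoq (adiponectin) was at 35.7, 0 and 0 and 0 to 1.25 (median 0.0502). Of the 467 genes called at least 2-fold lower, 300 (64.2%) were kept without NX replicate 0, and of 10 listed adipocyte genes 5 were lower with it, and 0 lower and 2 higher without it. Without single IRI libraries 1 to 4 of the 10 were lower. Fabp4, carried by adipocytes and endothelium, was at 486, 15 and 18.1 after NX and 44.1 to 73.9 (median 59) after IRI, so that it rose without replicate 0 (1.82, adjusted p = 0.000242). Ucp1 did not pass without NX replicate 0 or IRI replicate 0, 1, 2, 4 or 5 (changes -6.24 to 11.28). Fitted sizes also depended on single libraries, with -6.48 without IRI replicate 3 for Ucp1.

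Without NX replicate 0 the rule gave another set of falls: Ano3, Akr1c18, Eddm3b, AC102255.1, Mcoln2, Neurog2, Aplnr, Trdn, Kcng1, Adra2c, Scd1, Bcat1, Zfp128, AC134576.3 and Frmpd3. Of these, 14 were also called lower with all 9 libraries, and Eddm3b was not. Akr1c18, a progesterone-degrading reductase, was at 14.3, 27 and 23.1 CPM after NX and 1.81 to 7.77 (median 3.42) after IRI (-2.40 ± 0.47, adjusted p = 0.00061). Scd1, which makes monounsaturated fatty acids, was at 1877, 288 and 305 after NX, so replicate 0 was again highest, and at 32.5 to 90.3 (median 64.7) after IRI. It fell by 3.75 on the log2 scale with all libraries and by 2.28 without replicate 0. Bcat1, a branched-chain aminotransferase, was at 25.6, 66.3 and 53.6 and 6.23 to 23.6 (median 11.5) (-1.93 ± 0.51), Aplnr, the apelin receptor of endothelium, at 4.33, 4.43 and 3.44 and 0.0643 to 1.69 (median 0.624) (-2.44 ± 0.63) and Neurog2 at 3.77, 3.12 and 4.96 and 0.134 to 0.997 (median 0.792) (-2.48 ± 0.41). In these 15 genes, which were chosen by this difference, every IRI library lay below every NX library other than replicate 0. The threshold was missed by Bcat1 (-1.62) without NX replicate 1.

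**Figure D5:**
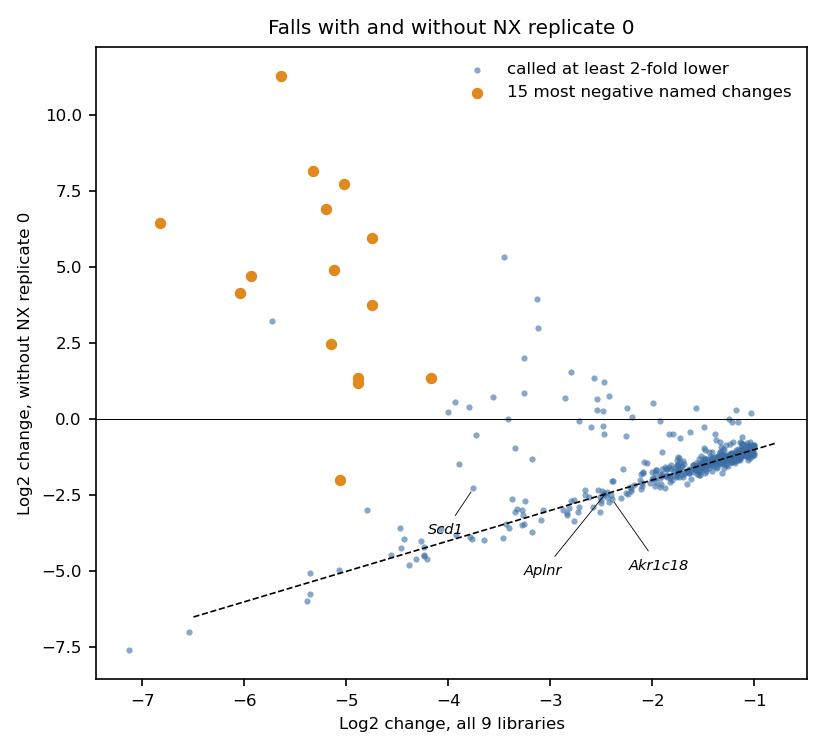
Log2 change of IRI over NX in WT kidneys for the 467 genes called at least 2-fold lower, fitted with all 9 WT libraries (x axis) and without NX replicate 0 (y axis), with the line of equality dashed. The 15 most negative changes of named genes are in orange, of which 14 lie above 0 without the library, while Scd1, Akr1c18 and Aplnr (labelled) stay below.

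The 6 IRI libraries differed most in 10 of the genes called higher: Aldh1a3, Hmga1b, Fcgbp, Hbb-bt, Krt20, Hba-a2, Alas2, Cxcl1, Hbb-bs and Hba-a1. Krt20, an injury keratin, was at 20.9, 63.1, 61.1, 137, 17.5 and 14.4 CPM in IRI replicates 0 to 5, and Cxcl1 at 43.9, 96.1, 55.2, 86.2, 19.1 and 11.1. In both, replicate 3 was highest or next to it and replicates 4 and 5 were among the lowest. Hbb-bs, a beta globin, ran the other way at 231, 171, 139, 51.6, 179.6 and 678, with replicate 5 highest and replicate 3 lowest. Aldh1a3, which makes retinoic acid, was at 32.4, 9.13, 21.9, 0.788, 1.42 and 1.27 and Fcgbp at 14.3, 10.8, 18, 1.03, 5.11 and 1.24. The changes were 4.31 ± 1.29 for Aldh1a3, 3.33 ± 0.98 for Fcgbp and 1.70 ± 0.61 for Hmga1b, a chromatin protein gene whose copies can share reads. By comparison, the 6 IRI values of Egr1 and Jun spanned 686 to 1219.9 (median 922) and 585 to 1604 (median 1043). Single libraries decided some of these calls, which were lost for Fcgbp (3.0) without NX replicate 0, for Aldh1a3 (3.99) without NX replicate 1 and for Aldh1a3 (4.20) and Fcgbp (3.16) without NX replicate 2. Hmga1b did not pass without NX replicate 0, 1 or 2 or IRI replicate 1, 2, 3 or 5 (changes 1.46 to 1.81). Among calls that held, 1 library moved the size to 4.98 without NX replicate 0 and 3.62 without IRI replicate 0 for Aldh1a3 and 4.07 without NX replicate 1 for Fcgbp.

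Rises of at least 4-fold were more common in short genes, but rises of any size were not. Of genes with a span under 5 kb, 5.78% rose at least 4-fold, against 4.95% from 5 to 20 kb, 2.86% from 20 to 50 kb, 2.58% from 50 to 100 kb and 1.78% at 100 kb and over. The shares called higher at any size were 12.3%, 17.6%, 18.1%, 20.5% and 17% in the same order. Rises of at least 4-fold also varied with mean level: 6.57% of genes under 1 CPM, 4.49% from 1 to 10, 1.88% from 10 to 100 and 2.63% at 100 and over. Span and level were not separated. Among genes of at least 100 CPM, 18.3% rose and 29.2% fell. These shares are across genes, which are not replicates.

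The same contrast in TG kidneys, which has its own NX controls, called 3152 genes higher (16.4%) and 2509 lower (13%). Of the WT rises 2334 were also called in TG, 72.3% of the WT and 74% of the TG calls, and of the falls 1499, 55% and 59.7%. The test of the difference itself, the genotype by injury interaction, called 0 genes by edgeR (1848 at an unadjusted p under 0.05), 0 by limma-voom and 51 by DESeq2. In TG the change of Egr1 was 7.70, of Havcr1 3.12 and of Umod 0.04, against 9.13, 0.62 and 0.74 in WT, with interaction adjusted p of 0.376, 0.376 and 0.422. A p that misses the threshold does not show that the genotypes respond alike.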

How the data were processed

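Whole mouse kidneys were profiled as poly-A RNA by the authors, who used fastp 0.23.2, STAR 2.7.0 and featureCounts 2.0.3 with GRCm39 per the submitters' processing notes. The deposited table holds raw counts of 57133 features, EGFP among them, in 18 libraries, of which 9 are compared here. Most values are even numbers (37.8 to 41.8% odd), so both reads of a pair may have been counted, and a fit on halved counts was run. Symbols came from GENCODE names for 51880 IDs (90.8%), and promoters from RefSeq (GRCm38.p6).

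Genes passing edgeR's filterByExpr (19264) were fitted by edgeR 4.0.16 (R 4.3.3) with TMM factors and the quasi-likelihood test on all 18 libraries, so WT and TG groups share one estimate of the spread. Each SE is the size of the log2 change divided by the square root of F. A call is a Benjamini-Hochberg adjusted p under 0.05 over all genes tested. Fold bounds set the mean CPM of the IRI libraries over a floor of 3 counts in the NX group. On data simulated for this comparison, 84 of 100 genes changed 2-fold and 99 of 100 changed 4-fold were called, with 6 false calls among 19264 genes. The changed genes all had at least 1 CPM, no other gene was changed, and counts followed the fitted spread with no outlying library. These rates need not hold for the data, where 5952 genes were called. DESeq2 1.42.0, limma-voom (limma 3.58.1), other scaling factors, a 2-fold test, a replicate block and left-out libraries were alternatives.

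Named genes were, by a rule, the 15 largest and 15 most negative changes and the 10 largest gains and losses in CPM among called, named genes of at least 1 CPM in the higher group. Others were the 10 rises most variable over IRI libraries, up to 4 called members per list and direction, and Havcr1, Lcn2, Gsta2, EGFP and Adipoq. Uncalled members, and some called ones, are named beyond the rule. A few genes that meet the rule are not reported here. The libraries compared and the gene lists were chosen with earlier results of these data known. No libraries shared identical or near-identical counts.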

Additional observations from a re-analysis of the deposited data

Results flagged for a closer look

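Each value was looked at within the 6 IRI libraries, and 38 of 283 values checked had a highest or lowest library whose gap to the next, over the range of all 6 exceeded Dixon's 95% critical value. Chance flags about 1 in 20 groups, and genes of one library are not independent of each other. The genes checked are those named here, and some were named for their spread over these IRI libraries or for a single odd library. The number of flags can therefore not be judged against that rate.

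IRI replicate 5 was the library that stood out in 26 of the 38. Its sums of defining markers were the highest for the thick ascending limb (6137 CPM, next 4442), intercalated cells (187.6, next 135.5), podocytes (119, next 74.5), endothelium (309, next 207), neutrophils (76.7, next 32.6) and red cells (1188, next 462). Single genes followed the same cells. Among neutrophil and myeloid genes S100a8 was at 24.3 CPM there, S100a9 at 37.8, Csf3r at 14.6, Clec4d at 6.42 and Trem1 at 3.23. Among red cell transcripts Hbb-bs was at 678, Hbb-bt at 49.1, Hba-a2 at 30.85 and Alas2, the first enzyme of heme synthesis in red cells, at 30.1. Of distal and glomerular genes Umod was at 4063, Slc12a1 at 1901 and Nphs1 at 37.9. Cldn4 reached 656, the endothelial factor Sox18 6.50, Notch1 56.6 and Sprr2g 11.1. The mitochondrial ribosomal RNAs mt-Rnr2 and mt-Rnr1 reached 7547 and 4711. Ppp1r15a, which reverses eIF2 alpha phosphorylation, was lowest there at 90.2 (next 119), and the pseudogene Rpsa-ps10 was at 1.27 against 50.5 or more in the other 8 WT libraries (and at 0.952 in TG IRI replicate 3). Without this library 3394 genes were called higher and 2692 lower.

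The other 12 values came from 5 libraries. EGFP was at 2.59 CPM in IRI replicate 1 and 0 elsewhere, and Slc4a9 (88.1, next 58.1) and AC134576.3 (8.98, next 3.02) were also highest there. IRI replicate 0 was highest in Ei24 (109.7, next 104), Acvr1c (0.248, next 0.0322) and Adrb3 (0.248, next 0). In IRI replicate 2 the interferon factor Irf1 was highest (64.9, next 23.1) and Zfp36 lowest (178, next 235). IRI replicate 3 was highest in Vgf (11.3, next 3.78), Nptx2 (4.41, next 2.08) and Orm1 (0.129, next 0.0377), and IRI replicate 4 in Ano3 (1.11, next 0.348).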

How the results depend on the processing

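With all 9 libraries 3229 genes were higher and 2723 lower. RLE factors, upper-quartile factors, no count filter, DESeq2, limma-voom, a robust fit, the 9 WT libraries alone and halved counts gave 2682 to 3675 higher and 2048 to 3931 lower. A test against a 2-fold minimum (glmTreat) gave 671 and 57. Leaving out single libraries gave 2700 to 3394 higher and 1815 to 2709 lower, with the fewest higher without NX replicate 2 and the fewest lower without NX replicate 1. The interaction count was 0, against 51 by DESeq2, and 0 to 1 without single libraries (1 without TG NX replicate 1). With the replicate number as a block, 2920 were higher and 2271 lower. The labels tie the replicate numbers to nothing shared. Deviations of same-numbered NX and IRI libraries correlated at 0.072, 0.0662 and 0.0245, against -0.0703 to 0.0341 for the other pairs. For each NX library the same-numbered IRI library had the highest of these low values. Whether the numbers mark something shared was not tested. Of 240 called genes named, not counting Dnajb9, 107 passed in every setting run and 180 in all but glmTreat. The number lost was 32 without NX replicate 0, 25 in limma-voom, 22 under the block and 10 without IRI replicate 1. Some log2 changes turned sign, and the cause was not tested. In limma-voom with sample weights the sign turned for Plin1 (0.68), Cfd (1.67), Adipoq (0.91), Ltf (-0.19), Adig (1.80), Fabp4 (0.89), Otop1 (1.89), Nat8l (0.14), Cidec (1.39), Ucp1 (2.22) and Cidea (0.91). Without NX replicate 0 and IRI replicate 1 it turned for Plin1 (8.39), Cfd (9.86), Adipoq (7.90), Ltf (-0.28), Phlda3 (0.27), Acvr1c (5.08), Adig (6.04), Fabp4 (1.83), Orm1 (4.05), Otop1 (7.08), Nat8l (1.46), Cidec (2.71), Thrsp (1.45), Ucp1 (11.54), Adrb3 (4.93), Slc36a2 (1.20), Cidea (3.94) and Elovl3 (6.68). Without NX replicate 0 and IRI replicate 5, chosen after seeing the data, it turned for Plin1 (8.39), Cfd (9.88), Adipoq (7.99), Ltf (-0.19), Phlda3 (0.28), Gsta2 (-0.082), Acvr1c (5.15), Adig (6.23), Fabp4 (1.81), Orm1 (4.39), Otop1 (7.18), Nat8l (1.55), Cidec (2.71), Thrsp (1.44), Ucp1 (11.55), Adrb3 (4.94), Slc36a2 (1.41), Cidea (3.96) and Elovl3 (6.70). Ltf was at -0.057 with upper-quartile factors. Gsta2 was at -0.064 under the replicate block and at -0.13 without IRI replicates 4 and 5, also chosen after seeing the data. Without single libraries the change ran, gene by gene, over these ranges: Slc5a2 -0.24 to 0.12, Plin1 -6.18 to 8.13, Cfd -4.39 to 9.61, Adipoq -5.89 to 7.71, Ltf -0.19 to 0.25, Phlda3 -1.57 to 0.29, Acvr1c -7.45 to 4.90, Adig -5.31 to 5.96, Fabp4 -2.09 to 1.82, Orm1 -7.32 to 4.14, Otop1 -5.92 to 6.91, Nat8l -5.44 to 1.36, Cidec -5.72 to 2.45, Thrsp -4.72 to 1.34, Ucp1 -6.48 to 11.28, Adrb3 -10.64 to 4.69, Slc36a2 -5.44 to 1.18, Cidea -5.48 to 3.73 and Elovl3 -8.29 to 6.43. Changes of about 2-fold and genes near the floor of 3 counts are where depth and 3 control libraries limit the calls.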

Other observations

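Of 35 tested RNA helicases named Ddx, 14 rose and none fell (median 0.11, beside background shares of 16.8% higher and 14.1% lower). Ddx3x, a translation helicase encoded on the X chromosome, was at 262, 263 and 285 CPM after NX and 431 to 627 (median 524) after IRI, without overlap (0.98 ± 0.11, adjusted p = 1.15e-06). Its Y-linked counterpart Ddx3y, in these male kidneys, rose by 0.92 ± 0.15, Ddx5 by 0.75 ± 0.12 and Ddx21, of ribosome production, by 0.59 ± 0.11. Of 17 tRNA synthetases 8 rose and none fell. None of 73 cytosolic ribosomal protein genes was called (median -0.01), while 18 of 81 mitochondrial ribosomal protein genes fell and 2 rose, with 8 falls without NX replicate 0. Of 350 tested zinc finger genes named Zfp, 88 fell and 39 rose (median -0.28), with 65 falls without NX replicate 0.

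Of 6 microRNA host genes 4 rose and 1 fell. Mir155hg rose by 2.95 ± 0.77 (3.70 without NX replicate 2), Mir142hg by 2.39 ± 0.61, Mir17hg by 1.81 ± 0.31 and Mir22hg by 1.56 ± 0.20. Mir22hg was at 15.1, 12.1 and 14.1 CPM after NX and 25.7 to 53.6 (median 40.1) after IRI. Of 12 small nucleolar RNA host genes 5 rose and 1 fell, with Snhg15 from 0.216, 0.0917 and 0.257 to 0.922 to 3.01 (median 1.61) (3.17 ± 0.43), Snhg12 at 1.66 ± 0.24 and Snhg1 at 1.63 ± 0.34. Of 9 tested long noncoding nuclear RNAs, which include Snhg transcripts, 5 rose and none fell (median 0.92). These are host transcripts counted in poly-A RNA, not the mature small RNAs.

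Some genes were nearly on in some libraries and nearly off in others. Among genes of at least 2 CPM in 1 library, 139 had a gap of at least 8-fold between neighbouring WT libraries (on CPM + 0.1). In 74 the gap lay between all IRI and all NX libraries, in 34 NX replicate 0 alone was high, and in 29 it split the IRI libraries, of which 2 were called. Ugt1a10, a UDP-glucuronosyltransferase, was at 47.0, 62.7 and 63.8 CPM after NX, at 47.6 and 46.3 in IRI replicates 1 and 5 and at 0.248 to 0.970 in the other 4 IRI libraries. Ugt1a9 and the predicted gene Gm15375 had the same high and low WT libraries. In TG kidneys Ugt1a10 was at 1.23, 135 and 1.87 after NX, and low in 1 of 6 IRI libraries (1.16). The genes of this cluster share exons, so reads can be split among them. Gm14038 was at 5.12 to 6.14 in IRI replicates 0 to 3 and at 0.154 or less in the other 5 WT libraries. Fabp1, the liver-type fatty acid binding protein, was at 0.431 in IRI replicate 4 and at 7.77 to 21.1 in the other 8 WT libraries, and at 0.320 in TG NX replicate 2. Serpina1d was at 0.570 in IRI replicate 5 and at 13.2 to 56.7 in the other 8 WT libraries, and at 0.107 in TG IRI replicate 3 and 0.0278 in TG IRI replicate 5. These genes were picked after their values were seen, and the cause was not tested.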
